A study of Mus musculus with 39 samples.

Results

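Collagens are the main structural proteins of the extracellular matrix, built from alpha chains wound into a triple helix. The fibrillar collagens form the cross-banded fibrils of connective tissue, and in the testis they lie in the interstitium, the capsule and the wall of the seminiferous tubule. The basement membrane collagens form or attach to the sheet under Sertoli and peritubular cells and around vessels, with type IV collagen as its network. The remaining collagens include beaded filaments, anchoring fibrils, networks, fibril-associated chains and membrane-spanning chains. Members were all probes whose gene symbol on the platform has the form Col, a number, the letter a and a number, and whose detection p-value was below 0.01 on at least 3 arrays. This gave 53 probes for 34 genes, of 91 probes for 41 collagen genes before the detection filter and of 12518 genes tested on the array. The fibrillar class (Col1, Col2, Col3, Col5 and Col11) held 8 genes, the basement membrane class (Col4, Col15 and Col18) held 8, and the other class held 18. The 7 collagen genes below that detection limit were Col11a1 (detected on 1 array at most), Col6a5, Col6a6, Col8a1, Col10a1, Col19a1 and Col25a1. Just inside the limit, with detection on 4 arrays, were Col9a1, Col28a1 and 1 further probe of Col24a1. Just outside it was a second probe of Col11a2, detected on 2 arrays.

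Gene expression was measured on 1-colour Illumina bead arrays of total RNA from mouse testes. The cultured groups were testes kept in organ culture for 2, 4, 6, 7, 9 and 14 days. They were set against testes that developed in vivo to 9.5, 11.5, 13.5, 14.5, 16.5 and 21.5 days post partum (dpp), and the 7.5 dpp testis was taken as the start of culture. The labels name neither strain nor treatment, and all groups share male sex and testis origin. Each group had 3 arrays, except 13.5 dpp in vivo with 2. Whether arrays of 1 group stand for different animals is not stated in the labels, and a p-value here covers only the spread between these samples, which may be technical. Levels below are normalized log2 signals of 1 probe per gene and cannot be compared between genes. Differences are log2 differences ± SE (n = 3 against 3 unless stated) from limma. A gene was called, and is said to have risen or fallen, when its Benjamini-Hochberg adjusted p over all 12518 genes was below 0.05 and its difference was at least 2-fold. An array detected 35.6% to 43.9% of the probes, and no array pair was identical. The 3 arrays of culture day 7 had the lowest mean raw signals of the series, at 368, 384 and 437 of a range of 368 to 789. As a check of the labelled tissue, all 8 measured Sertoli cell markers were detected on all arrays of culture day 14, and at 21.5 dpp in vivo 5 of the 8 were detected on all arrays and 2 on none. At 7.5 dpp all 8 were detected on all arrays.

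The promoters of a few members are shown because these genes carry the contrasts described below: Col1a2 and Col3a1 for the fibrillar genes that fell with age, and Col15a1 for the gene that was higher in culture at every age compared. The sequences are the 250 bases before the start of transcription from RefSeq (build GRCm38.p6, plus strand in all 3), at chr6:4505368-4505617 for Col1a2, chr1:45311288-45311537 for Col3a1 and chr4:47207762-47208011 for Col15a1. Capitals mark a match on either strand to the TATA box (TATAAA), to the CCAAT box or to the GC box (GGGCGG).
Col1a2: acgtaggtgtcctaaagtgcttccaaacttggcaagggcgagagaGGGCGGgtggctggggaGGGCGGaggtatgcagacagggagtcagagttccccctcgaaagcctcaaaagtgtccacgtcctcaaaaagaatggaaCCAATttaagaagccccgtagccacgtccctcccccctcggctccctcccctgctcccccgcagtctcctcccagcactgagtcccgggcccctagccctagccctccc
Col3a1: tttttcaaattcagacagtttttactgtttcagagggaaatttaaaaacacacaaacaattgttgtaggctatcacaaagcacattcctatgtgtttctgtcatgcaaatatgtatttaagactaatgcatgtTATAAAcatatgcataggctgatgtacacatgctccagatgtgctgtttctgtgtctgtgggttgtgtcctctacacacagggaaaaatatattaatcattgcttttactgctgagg
Col15a1: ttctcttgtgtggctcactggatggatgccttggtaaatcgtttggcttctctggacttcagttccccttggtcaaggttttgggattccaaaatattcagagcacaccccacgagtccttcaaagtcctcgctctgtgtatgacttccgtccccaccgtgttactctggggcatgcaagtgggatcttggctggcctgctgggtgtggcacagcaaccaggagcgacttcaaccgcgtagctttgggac

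In the Col1a2 window the CCAAT match began 109 bases before the start and GC box matches began 205 and 188 bases before it. Col3a1 had a TATA box match 117 bases before the start, and the Col15a1 window held none of these letters. The windows also differed in CG pairs, with 11 in Col1a2, 0 in Col3a1 and 8 in Col15a1. Promoter windows were matched for 26 of the 34 members, 29 windows in all, of which 4 held a TATA box match, 11 a CCAAT box match and 17 a GC box match. Over all 32851 windows of the same length the shares were 12.4%, 33.8% and 32.7%. Several members sit beside each other in the genome. Col4a1 and Col4a2 are transcribed from opposite strands with annotated starts 21 bases apart, and Col4a6 and Col4a5 from opposite strands with starts 1343 bases apart. Col3a1 is next to Col5a2, Col4a4 next to Col4a3, and Col6a2 next to Col6a1.

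During development in vivo most collagen genes fell. At 21.5 dpp 21 of the 34 collagen genes were lower than at 7.5 dpp and 3 were higher, where 28.7% of all genes were called lower, 20.2% higher and 48.9% in either direction. All 8 basement membrane genes fell, with a median difference of -1.92. Of the 8 fibrillar genes 5 fell and 1 rose, with a median of -2.07. The 18 other collagens had a median of -0.81, with 8 lower and 2 higher, and the median of all genes was -0.34. By 14.5 dpp 12 collagens were already lower than at 7.5 dpp and 2 were higher, against 6.93% of all genes called lower, 7.41% higher and 14.3% in either direction. The class medians at that age were -1.42 for fibrillar, -0.95 for basement membrane and -0.38 for other collagens. The counts at both ages shifted with the scaling. With the authors' deposited log2 values 14 collagens were lower and 2 higher at 21.5 dpp, and 7 lower and 1 higher at 14.5 dpp. With arrays centred on their median 21 were lower and 4 higher at 21.5 dpp, and 15 lower and 2 higher at 14.5 dpp. Arrays here carry bulk tissue, with signals normalized between arrays. Changes in the number of cells of a type, in the mix of cells and in RNA per cell cannot be told apart.

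Organ culture was set against the same 7.5 dpp arrays. After 14 days 12 collagen genes were lower than at the start and 2 were higher, against 7.76% of all genes called lower, 8.61% higher and 16.4% in either direction. The basement membrane median was -0.63 at culture day 14 and the fibrillar median -0.93. At day 7, with the probe used for each gene, only Col15a1 was higher and only Col14a1 lower than at the start. Of all genes 4.45% were higher, 4.28% lower and 8.73% in either direction. Other probes of Col23a1 (-1.52 ± 0.33) and Col17a1 (-1.02 ± 0.30) were called lower, and a second probe of Col14a1 was not called (-0.70 ± 0.26, limma adjusted p = 0.0545). The mean of the kept probes of each gene gave 1 collagen higher and 3 lower at day 7 against the start. With median centring that comparison had 0 collagens higher and 7 lower, and with the authors' values 1 higher and 0 lower. At day 2 Col7a1 was higher than at the start and Col3a1 and Col9a3 were lower, against 4.86% of all genes higher, 4.31% lower and 9.17% in either direction, and the authors' values called 0 there. Set against testes of the same age, culture day 14 had 12 collagens higher and 3 lower than 21.5 dpp in vivo, where 20.0% of all genes were higher, 15.9% lower and 35.9% in either direction. The 12 were 4 fibrillar genes (Col1a1, Col1a2, Col3a1 and Col5a1), 5 basement membrane genes (Col4a1, Col4a2, Col4a5, Col4a6 and Col15a1) and 3 others (Col6a1, Col6a2 and Col8a2). The 3 lower genes were Col2a1, Col9a3 and Col14a1. The class medians of the difference were 0.81, 1.59 and 0.08, and that of all genes was 0.25. All 8 basement membrane differences were above 0, and 5 of 8 fibrillar and 11 of 18 other differences were.

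**Figure D1:**
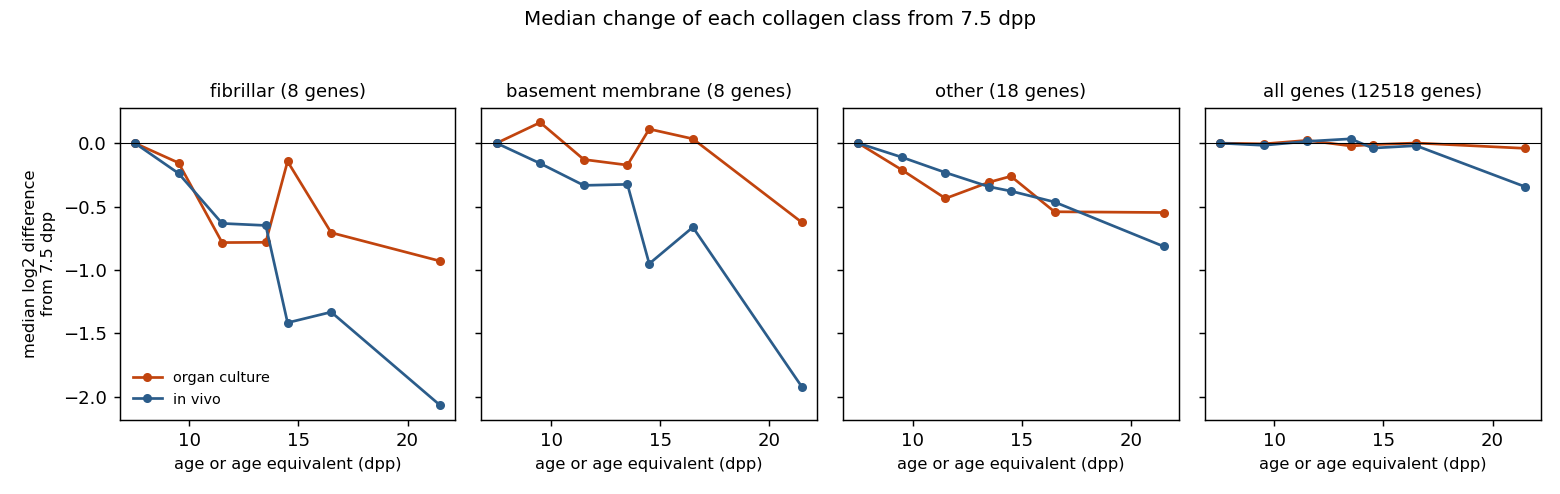
Median log2 difference from the 7.5 dpp group mean (vertical axis) against age or age equivalent in dpp (horizontal axis), for the fibrillar, basement membrane and other collagens and for all genes, in organ culture (orange) and in vivo (blue). In culture the fibrillar and basement membrane medians end at -0.93 and -0.63, and in vivo at -2.07 and -1.92.

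At the earlier culture times fewer collagens were called than at day 14, with day 7 as the exception, and fewer of all genes were called as well. The share of collagens called was 8.82% at day 2, near that of all genes, and 2.94% at day 4, below it. It was 11.8% at day 6, 47.1% at day 7, 14.7% at day 9 and 44.1% at day 14. Culture day 2 had 2 collagens (Col13a1 and Col15a1) higher and 1 (Col9a3) lower than 9.5 dpp in vivo, against 4.69% of all genes higher, 4.02% lower and 8.71% in either direction. Day 4 had Col15a1 higher and 0 lower than 11.5 dpp, against 3.93%, 4.02% and 7.95%. Day 6 had 2 (Col13a1 and Col15a1) higher and 2 (Col4a4 and Col14a1) lower than 13.5 dpp, against 4.07%, 2.72% and 6.78%. Day 7 had 14 higher and 2 (Col9a3 and Col14a1) lower than 14.5 dpp, against 5.56%, 5.74% and 11.3%. Day 9 had 4 (Col4a2, Col8a2, Col13a1 and Col15a1) higher and 1 (Col9a3) lower than 16.5 dpp, against 5.18%, 3.16% and 8.34%. Among these genes Col13a1 was detected on 9 arrays, none of them in vivo from 9.5 dpp on. It thus entered the list largely through the culture groups where it was called. These small counts shifted with the scaling: the authors' values gave 1 higher and 0 lower at day 2, the same at day 6, and 2 higher and 0 lower at day 9, and median centring gave 2 higher and 0 lower at day 2, and 1 higher and 6 lower at day 6. The day 7 split depended on the scaling. When arrays were centred on their median in place of quantile normalization, 5 collagens were higher and 3 lower at day 7, while the median of all genes was -0.27, against 0.01 with the quantile normalization. The collagen median was then 0.41, against 0.57 with the quantile normalization. Among the members described with values in each sample, Col1a1, Col1a2, Col3a1, Col5a1, Col4a1, Col4a6, Col8a2 and Col26a1 lost their day 7 call under that centring. The authors' deposited log2 values gave 7 higher and 1 lower. With the mean of the kept probes of each gene, Col3a1, Col4a5, Col4a6, Col8a2 and Col23a1 lost their day 7 call (-0.11 to 0.92). The day 9 call of Col9a3 was lost without replicate 3 of 16.5 dpp (-0.87). The day 9 count rose to 10, with 9 higher and 1 lower, when replicate 2 of culture day 9 was left out, and was 8 without replicate 1 of 16.5 dpp in vivo.

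**Figure D2:**
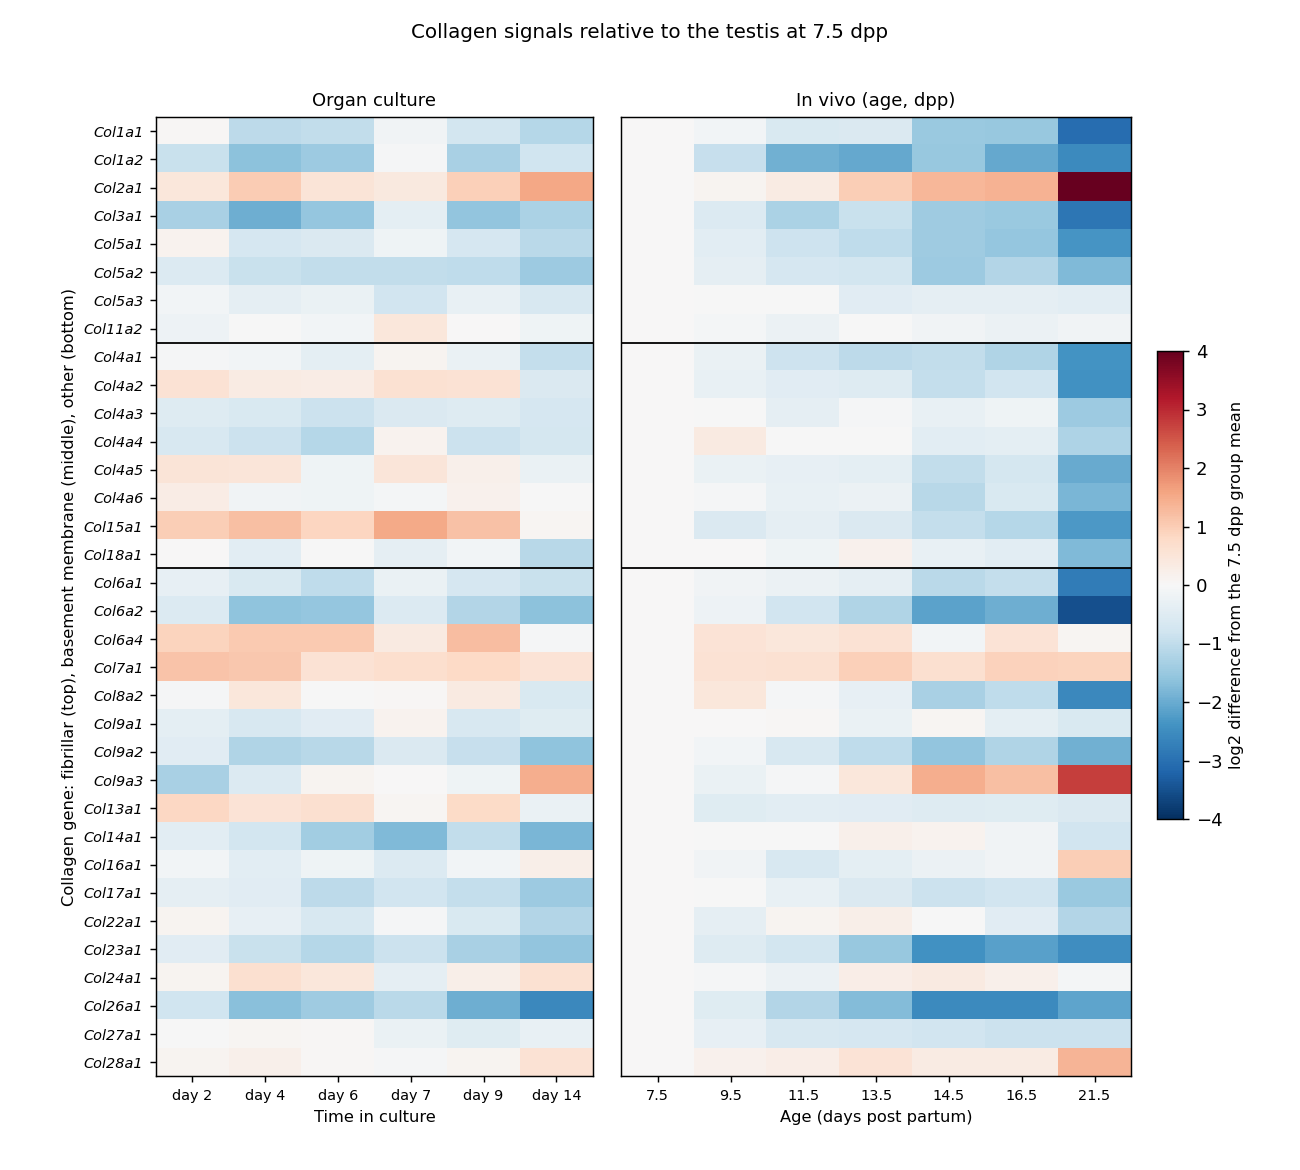
Log2 difference of each of the 34 collagen genes (rows, grouped by class) from the 7.5 dpp group mean, by culture day (left panel) and by age in vivo (right panel); red is higher and blue lower than 7.5 dpp. The last in vivo column is blue for all 8 basement membrane genes and dark red for Col2a1, which no array at 7.5 dpp detected and which was at least 9.5-fold higher at 21.5 dpp.

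Type I collagen, the chief fibril protein of connective tissue, contains the chains of Col1a1 and Col1a2. Col1a1 had signals of 10.04, 9.85 and 9.99 at culture day 14, against 7.65, 7.86 and 8.67 at 21.5 dpp in vivo. All culture arrays lay above all in vivo arrays, and the start at 7.5 dpp was higher than both groups, at 11.34, 10.97 and 10.97. Culture minus in vivo was 1.90 ± 0.36 (limma adjusted p = 4.53e-05), and that between 21.5 and 7.5 dpp in vivo was -3.04 ± 0.36 (limma adjusted p = 1.16e-08). Culture day 14 was itself 1.14 ± 0.36 below the start, a fall that lost its call without replicate 1 of 7.5 dpp (-1.01, limma adjusted p = 0.0657). Col1a2 had 7.27, 8.10 and 8.19 at culture day 14, against 6.07, 5.81 and 6.37 at 21.5 dpp in vivo. Again the groups did not overlap, with a difference of 1.77 ± 0.41 (limma adjusted p = 0.000445). Its difference in vivo was -2.55 ± 0.41 (limma adjusted p = 2.09e-06). At culture day 7 both chains were above 14.5 dpp in vivo, by 1.36 ± 0.36 for Col1a1 and 1.45 ± 0.41 for Col1a2, the second call being lost without replicate 1 of 14.5 dpp (1.14). At day 4 neither chain differed beyond the threshold from 11.5 dpp in vivo, with -0.44 ± 0.36 for Col1a1 and 0.30 ± 0.41 for Col1a2.

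Col3a1, which forms the thin fibrils of distensible tissues together with type I, lay below the in vivo signals at culture day 2 and above them at days 7 and 14. Its signals were 7.66, 7.31 and 7.92 at culture day 2, against 8.5, 8.26 and 8.37 at 9.5 dpp in vivo. The culture arrays were all below the in vivo arrays, but the difference of -0.75 ± 0.26 was less than 2-fold (limma adjusted p = 0.0381). Against the start it had fallen by 1.30 ± 0.26 by day 2 (limma adjusted p = 0.000513). At day 7 its signals were 8.82, 8.46 and 8.32 in culture, against 7.01, 7.75 and 7.77 at 14.5 dpp in vivo. The difference of 1.02 ± 0.26 was called (limma adjusted p = 0.00429) with the probe used here. A second probe of Col3a1, detected on 30 arrays, gave -1.23 ± 0.60 in the same comparison (limma adjusted p = 0.127), and the mean of both probes gave -0.11. The call was also lost without replicate 1 of culture day 7 (0.88) or replicate 1 of 14.5 dpp (0.77), both under 2-fold. At day 14 Col3a1 had 7.95, 7.41 and 7.65 in culture, against 6.20, 5.81 and 6.11 at 21.5 dpp in vivo. Here the groups were well apart, with a difference of 1.63 ± 0.26 (limma adjusted p = 3.96e-06), and the second probe gave 0.98 ± 0.60 (limma adjusted p = 0.17). In vivo Col3a1 fell by 2.89 ± 0.26 between 7.5 and 21.5 dpp, and the second probe by 1.93 ± 0.60.

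The minor fibrillar chains of type V collagen, which set the diameter of type I fibrils, moved less uniformly. Col5a1 had 10.78, 10.76 and 10.75 at culture day 14, against 9.37, 9.36 and 9.69 at 21.5 dpp in vivo. The difference was 1.29 ± 0.27 (limma adjusted p = 0.000173), and the 2 groups did not overlap. In vivo it fell by 2.37 ± 0.27 from the 7.5 dpp level (limma adjusted p = 6.62e-09), and culture day 14 was 1.07 ± 0.27 below that level. Col5a2, the partner of Col5a1 in the common form of type V and the neighbour of Col3a1 in the genome, was detected on 14 of the 38 arrays. It was detected on none of the arrays of culture day 14 or of 21.5 dpp in vivo, so it allows no fold between them. It fell at least 1.89-fold between 7.5 and 21.5 dpp in vivo (limma adjusted p = 0.000145), or at least 1.21-fold without replicate 1 of 7.5 dpp, with 7.64, 5.77 and 5.65 at 7.5 dpp. Replicate 1 of 7.5 dpp, at 7.64, lay far above the other two arrays of its group. Without it the calls of Col5a2 at 14.5 dpp in vivo (-0.82) and at culture day 14 (-0.80) were lost. Col5a3 and Col11a2, detected on 9 and 6 arrays, were called in no comparison.

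Col2a1, the fibrillar collagen of cartilage, ran the other way. Its signals were 8.92, 8.58 and 9.19 at 21.5 dpp in vivo, against 4.77, 4.69 and 5.29 at 7.5 dpp. None of the 3 arrays at 7.5 dpp detected it, so its rise by 21.5 dpp was at least 9.5-fold (limma adjusted p = 1.53e-11). Culture arrays were lower, with 6.14, 6.73 and 6.55 at day 14, a difference from 21.5 dpp in vivo of -2.42 ± 0.34 (limma adjusted p = 5.82e-07). At 14.5 dpp in vivo it was at least 1.51-fold above 7.5 dpp, a call that was lost with the authors' values (0.27) and with the mean of its 3 probes (0.91). At culture day 7 no array detected it, whereas all 3 arrays at 14.5 dpp in vivo did. Beside this gene, the summed signal of 4 measured cartilage markers of 7 listed was 609.5 to 1169 at culture day 14, and 8638 to 8932 at 21.5 dpp in vivo. At 7.5 dpp that sum was 456.9 to 608.9. Within that list the group means at 21.5 dpp in vivo were 11.75 for Comp and 12.35 for Sox5. Acan, which encodes the aggregating proteoglycan that defines cartilage, was at 4.60 there, after 5.09 at 7.5 dpp. Sox6 was at 7 there, at 6.74 at 7.5 dpp and at 7.07 at culture day 14. Of the 4, 2 were called higher and 0 lower at 21.5 than at 7.5 dpp, against 48.9% of all genes in either direction. At culture day 14, 2 were lower and 0 higher than at 21.5 dpp in vivo, against 35.9%. At 21.5 dpp in vivo 3 of the 4 measured cartilage markers were detected on all arrays and 1 on none. Their part in the Col2a1 result was not tested.

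**Figure D3:**
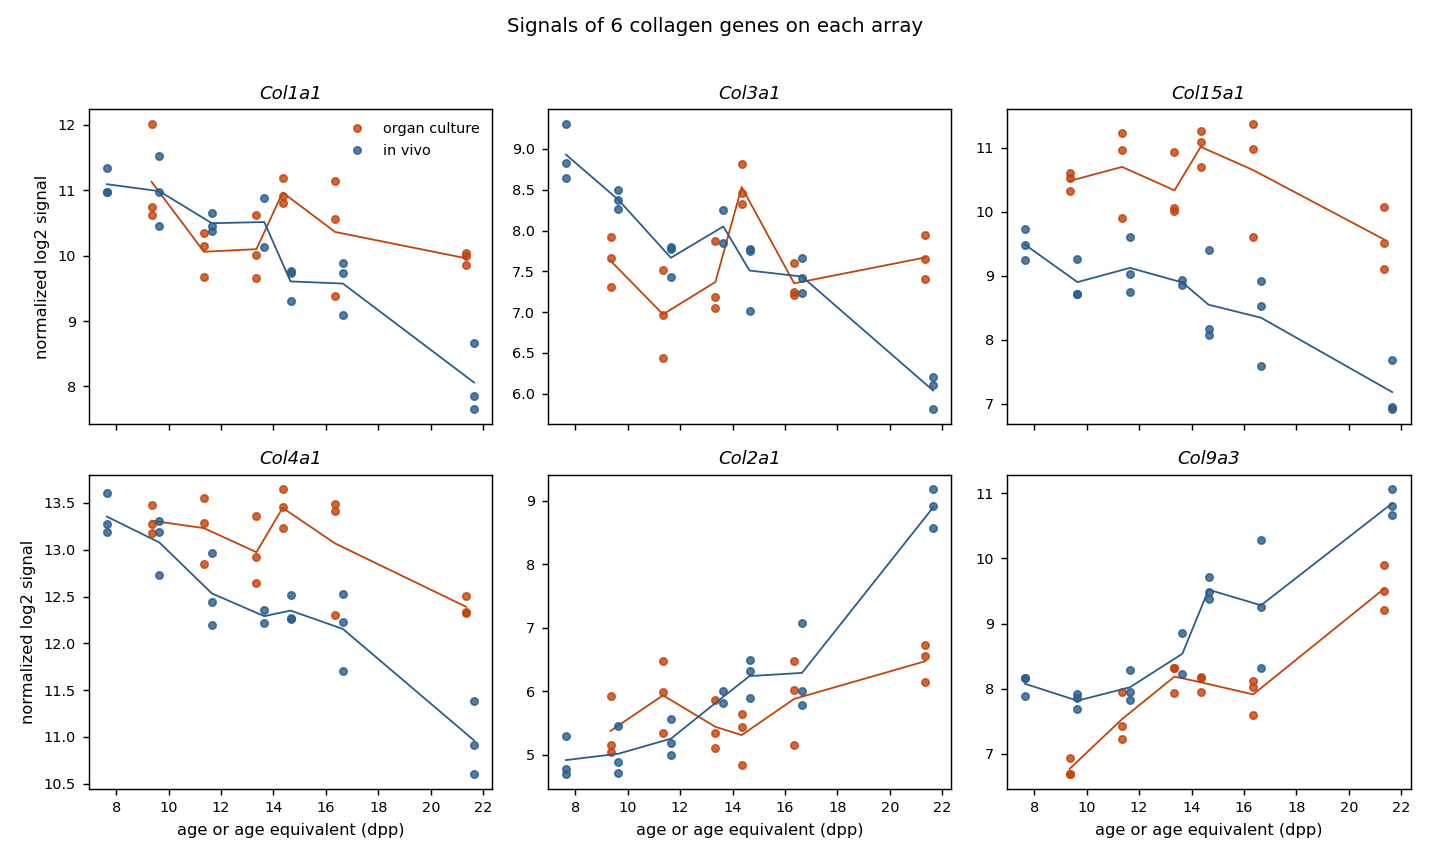
Normalized log2 signal (vertical axis) of 6 collagen genes on each of the 38 arrays against age or age equivalent in dpp (horizontal axis), with organ culture in orange and in vivo in blue; lines join group means. Col1a1, Col3a1, Col15a1 and Col4a1 end higher in culture than in vivo, and Col2a1 and Col9a3 end lower.

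All basement membrane collagens fell in vivo, and 5 of 8 were higher in culture at day 14. Col4a1 and Col4a2, which together form the heterotrimer of most basement membranes, are the head-to-head pair named above. Col4a1 had 12.32, 12.34 and 12.51 at culture day 14, against 10.91, 10.60 and 11.38 at 21.5 dpp in vivo. Col4a2 had 11.79, 11.84 and 11.93 at culture day 14, against 9.86, 9.67 and 10.5 at 21.5 dpp in vivo. The lowest culture array of each gene lay above its highest in vivo array. The differences were 1.43 ± 0.26 for Col4a1 (limma adjusted p = 2.25e-05) and 1.84 ± 0.29 for Col4a2 (limma adjusted p = 3.47e-06). In vivo they fell by 2.38 ± 0.26 and 2.41 ± 0.29 between 7.5 and 21.5 dpp. Col4a2 was also called at culture days 7 (1.57 ± 0.29) and 9 (1.36 ± 0.29), and Col4a1 at day 7 (1.09 ± 0.26, or 0.99 without replicate 2 of the culture) but not at day 9 (0.92 ± 0.26, limma adjusted p = 0.0113, under 2-fold). The call of Col4a2 at day 9 was lost when only the 2 groups compared entered the fit (limma adjusted p = 0.0783).

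The Col4a5 and Col4a6 chains are found together in another type IV network, as in the basement membrane of smooth muscle. Col4a5 had 9.21, 8.94 and 8.94 at culture day 14, against 7.52, 6.97 and 7.37 at 21.5 dpp in vivo. The arrays did not overlap, and the difference was 1.75 ± 0.25 (limma adjusted p = 4.88e-07), with 1.33 ± 0.21 for a second probe. At day 7 the probe used gave 1.49 ± 0.25, but the second probe gave -0.20 ± 0.21 (limma adjusted p = 0.515), so this day rests on 1 probe. Col4a6 had 6.92, 7.05 and 7.11 at culture day 14, while at 21.5 dpp in vivo it was below detection on all 3 arrays, at 5.39, 4.95 and 5.27. Culture exceeded in vivo at least 3.03-fold (limma adjusted p = 5.79e-08), and culture day 14 lay -0.01 ± 0.23 from the start. Col4a3 and Col4a4, chains known mainly from the kidney glomerulus, fell in vivo by 1.46 ± 0.24 and 1.23 ± 0.22 between 7.5 and 21.5 dpp. Their culture values at day 14 were not called against 21.5 dpp in vivo (0.78 ± 0.24 and 0.53 ± 0.22), although another probe of Col4a4 gave 1.26 ± 0.28 and was called. At culture day 6 Col4a4 was lower than 13.5 dpp in vivo by 1.14 ± 0.25 (n = 3 against 2).

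Col15a1, a basement membrane-associated collagen that links the membrane to the fibrils around it, was called in each of the 6 comparisons of culture with in vivo testes. It had 10.53, 10.32 and 10.60 at culture day 2, against 9.26, 8.72 and 8.72 at 9.5 dpp in vivo. It had 10.07, 9.52 and 9.11 at culture day 14, against 6.95, 6.91 and 7.68 at 21.5 dpp in vivo. At all 6 ages every culture array lay above every in vivo array of the same age. The differences were 1.58 ± 0.40 at day 2, 1.58 ± 0.40 at day 4, 1.44 ± 0.45 at day 6, 2.47 ± 0.40 at day 7, 2.31 ± 0.40 at day 9 and 2.39 ± 0.40 at day 14. The limma adjusted p ran from 8.45e-06 at day 14 to 0.0325 at day 6, the age with 2 in vivo arrays, where median centring (0.99), leaving out replicate 3 of the culture (1.14) and leaving out either in vivo array (1.47 and 1.41) each ended the call. Against the start Col15a1 was higher at day 7 by 1.53 ± 0.40 (limma adjusted p = 0.00598), and its difference at day 14 was 0.08 ± 0.40 (limma adjusted p = 0.908). In vivo it fell by 2.31 ± 0.40 between 7.5 and 21.5 dpp. Col18a1, the source of endostatin, had 11.58, 12.05 and 11.63 at culture day 14, against 11.26, 11.06 and 10.92 at 21.5 dpp in vivo. The groups did not overlap, but 0.67 ± 0.24 was under 2-fold. In vivo it fell by 1.77 ± 0.24 between 7.5 and 21.5 dpp and in culture by 1.10 ± 0.24 by day 14, or by 0.91 without replicate 1 of 7.5 dpp.

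Markers of several cell types moved beside these genes. Sertoli cell markers, 8 of 10 measured, summed to 48510 to 52480 at culture day 14 and to 21940 to 24680 at 21.5 dpp in vivo. Of the 8, 5 were called higher in culture and 0 lower. In that comparison 20.0% of all genes were higher, 15.9% lower and 35.9% in either direction. The summed signal of 10 endothelial markers was 7581 to 11090 at culture day 7 and 2638 to 3117 at 14.5 dpp in vivo, and 1616 to 3371 at culture day 14 and 1590 to 1883 at 21.5 dpp in vivo. At day 7, 6 of the 10 were called higher and 0 lower, where 5.56% of all genes were higher, 5.74% lower and 11.3% in either direction. At day 14, 2 of the 10 were called higher and 0 lower. Interstitial progenitor markers, 6 of 8 measured, summed to 7156 to 10250 at culture day 14 and to 1582 to 1742 at 21.5 dpp in vivo, after 23110 to 29280 at 7.5 dpp. All 6 were called higher in culture at day 14. Peritubular markers, 7 of 8 measured, summed to 21200 to 22900 at culture day 14 and to 9740 to 14560 at 21.5 dpp in vivo. Of these 7, 2 were called higher in culture and 1 lower, with a median difference of 0.38. Acta2, the brightest, averaged 14.27 in culture and 13.23 in vivo, and Actg2 averaged 7.87 and 10. Germ cell markers, 8 of 10 measured, summed to 36340 to 45610 at culture day 14 and to 70510 to 72230 at 21.5 dpp in vivo, after 2803 to 5313 at 7.5 dpp. At day 14, 0 of these 8 were called higher in culture and 2 lower. For 2 of the 8 the difference was above 0, among them Dazl (12.01 in culture and 11.09 in vivo). Blood markers, 4 of 5 measured, were at 285.4 to 325.1 at culture day 14 and 6943 to 11530 at 21.5 dpp in vivo, with all 4 called lower in culture. Macrophage markers, 7 of 8 measured, summed to 17590 to 22090 at culture day 14 and to 2534 to 3584 at 21.5 dpp in vivo. Only 2 of these 7 were called higher and 0 lower, with 6 differences above 0 and a median of 0.62. Lyz2, the brightest, averaged 14.12 in culture and 10.11 in vivo, and Mrc1 averaged 9.39 and 9.62. Leydig cell markers, 5 of 6 measured, were at 1009 to 1163 at culture day 14 and 11580 to 11900 at 21.5 dpp in vivo. Of these 5, 0 were called higher in culture and 2 lower, and 1 difference was above 0 (Cyp11a1, 6.12 in culture and 5.26 in vivo). Both measured adipocyte markers, of 5 listed, were detected on all arrays at 21.5 dpp in vivo (186.2 to 265.8). They were detected on no array of any other group, culture day 14 among them (64.43 to 70.95). Both thus passed the detection filter only through the group where they were high. Of the 2, 1 was called lower in culture and 0 higher. The part of all these cell type markers in the collagen differences was not tested.

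Type VI collagen forms beaded filaments around cells, and 2 of its 3 measured chains were called. Col6a2 had 8.97, 9.29 and 9.12 at culture day 14, against 7.13, 7.12 and 7.51 at 21.5 dpp in vivo. All culture arrays were higher, by 1.87 ± 0.34 on average (limma adjusted p = 2.13e-05). A second probe of Col6a2, detected on 31 arrays, gave 0.30 ± 0.18 in that comparison (limma adjusted p = 0.162), so the call rests on 1 probe. In vivo Col6a2 fell by 3.53 ± 0.34 between 7.5 and 21.5 dpp (limma adjusted p = 1.39e-10), and the second probe by 1.39 ± 0.18. Its neighbour Col6a1, encoding the other common chain, fell by 2.80 ± 0.25 in vivo and was 1.92 ± 0.25 higher in culture at day 14. Col6a4 was called in no comparison. Col8a2, a network collagen of the kind found in the corneal endothelial membrane, had 7.54, 8.06 and 7.23 at culture day 14, against 5.65, 5.46 and 5.80 at 21.5 dpp in vivo. The difference was 1.97 ± 0.26 (limma adjusted p = 1.37e-07). A second probe of Col8a2, detected on 6 arrays, was called in none of the comparisons and gave 0.12 ± 0.27 here, so this call too rests on 1 probe.

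Fibril-associated collagens, which decorate the surface of fibrils, differed among themselves. Col9a3, a chain of type IX, had 9.50, 9.21 and 9.90 at culture day 14, against 10.81, 11.07 and 10.66 at 21.5 dpp in vivo. The culture arrays were all lower, by a difference of -1.31 ± 0.29 (limma adjusted p = 0.000262). In vivo it was 2.78 ± 0.29 above 7.5 dpp at 21.5 dpp, and culture day 14 was 1.46 ± 0.29 above the start. Culture day 2, with 6.69, 6.68 and 6.93, lay below both 9.5 dpp in vivo (7.68, 7.91 and 7.85) and the start (7.89, 8.16 and 8.17). The call against 9.5 dpp (-1.05 ± 0.29) was lost with the authors' values (-0.46) and when replicate 2 of 9.5 dpp in vivo was left out. Col9a2, another type IX chain, fell in vivo at least 2.43-fold by 21.5 dpp, where no array detected it, and Col9a1 was called nowhere. Col14a1, which binds fibrils in tissues under strain, had 4.75, 5.30 and 4.91 at culture day 14, against 6.05, 5.88 and 6.24 at 21.5 dpp in vivo. No array at culture day 14 or day 7 detected it. It was at least 1.59-fold lower than in vivo at day 14 (limma adjusted p = 6.18e-05) and at least 2.32-fold lower at day 7 (limma adjusted p = 1.69e-07). The day 14 difference dropped under 2-fold without replicate 1 of the culture (-0.95) or replicate 3 of 21.5 dpp (-0.98). A second probe of Col14a1 gave -0.94 ± 0.26 at day 14 (limma adjusted p = 0.00315) and -0.47 ± 0.26 at day 7 (limma adjusted p = 0.194).

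Col23a1, a transmembrane collagen, had 7.54, 6.58 and 6.52 at culture day 14, against 5.79, 6.62 and 5.53 at 21.5 dpp in vivo. The groups overlapped, and 0.91 ± 0.42 did not pass the threshold (limma adjusted p = 0.0602). In vivo it fell by 2.47 ± 0.42 from 7.5 dpp, and culture day 14 was 1.57 ± 0.42 below the start. At day 7 Col23a1 was called higher than at 14.5 dpp in vivo, by 1.565 ± 0.415. A second probe, detected on 11 arrays, gave 0.28 ± 0.33 there (limma adjusted p = 0.574), and the mean of both probes 0.92. Col26a1, a gene first described in the mouse testis and ovary, had 7.53, 7.04 and 7.29 at culture day 14, against 8.02, 7.76 and 7.47 at 21.5 dpp in vivo. The culture and in vivo arrays overlapped (-0.47 ± 0.50, limma adjusted p = 0.44). Col26a1 fell by 2.58 ± 0.50 in culture and by 2.12 ± 0.50 in vivo from the 7.5 dpp signals of 10.21, 9.76 and 9.64. At day 7 Col26a1 was higher in culture by 1.48 ± 0.50 (limma adjusted p = 0.027), a call lost without replicate 2 or 3 of the culture or replicate 1 or 3 of 14.5 dpp (1.28 to 1.40). Col13a1 was detected on 9 arrays, with 3, 2, 2 and 1 of them at culture days 2, 4, 6 and 9, and on none in vivo from 9.5 dpp on, so it too entered through the groups where it was high. At day 2 its signals were 5.68 to 6.08 in culture, against 4.40 to 4.91 at 9.5 dpp in vivo. At day 9 only 1 of the 3 culture arrays detected it. Col28a1 was detected on 4 arrays, 3 of them at 21.5 dpp in vivo, so it entered the 34 genes through the group where it was high. Its signals there were 5.83 to 6.10, against 4.50 to 4.62 at 7.5 dpp, where it was not detected. Col7a1, the anchoring fibril collagen, was called only at culture day 2, where it was 1.13 ± 0.28 above the start. The transmembrane Col17a1 and the fibril-associated Col22a1 fell in vivo, by 1.48 ± 0.32 and 1.18 ± 0.29, and in culture at day 14, by 1.44 ± 0.32 and 1.17 ± 0.29. The members called in none of the 11 comparisons were Col5a3, Col11a2, Col6a4, Col9a1, Col16a1, Col24a1 and Col27a1, with the probe used for each. Another probe of Col24a1, detected on 24 arrays, gave 1.13 ± 0.28 at culture day 14 against 21.5 dpp in vivo and was called.

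**Figure D4:**
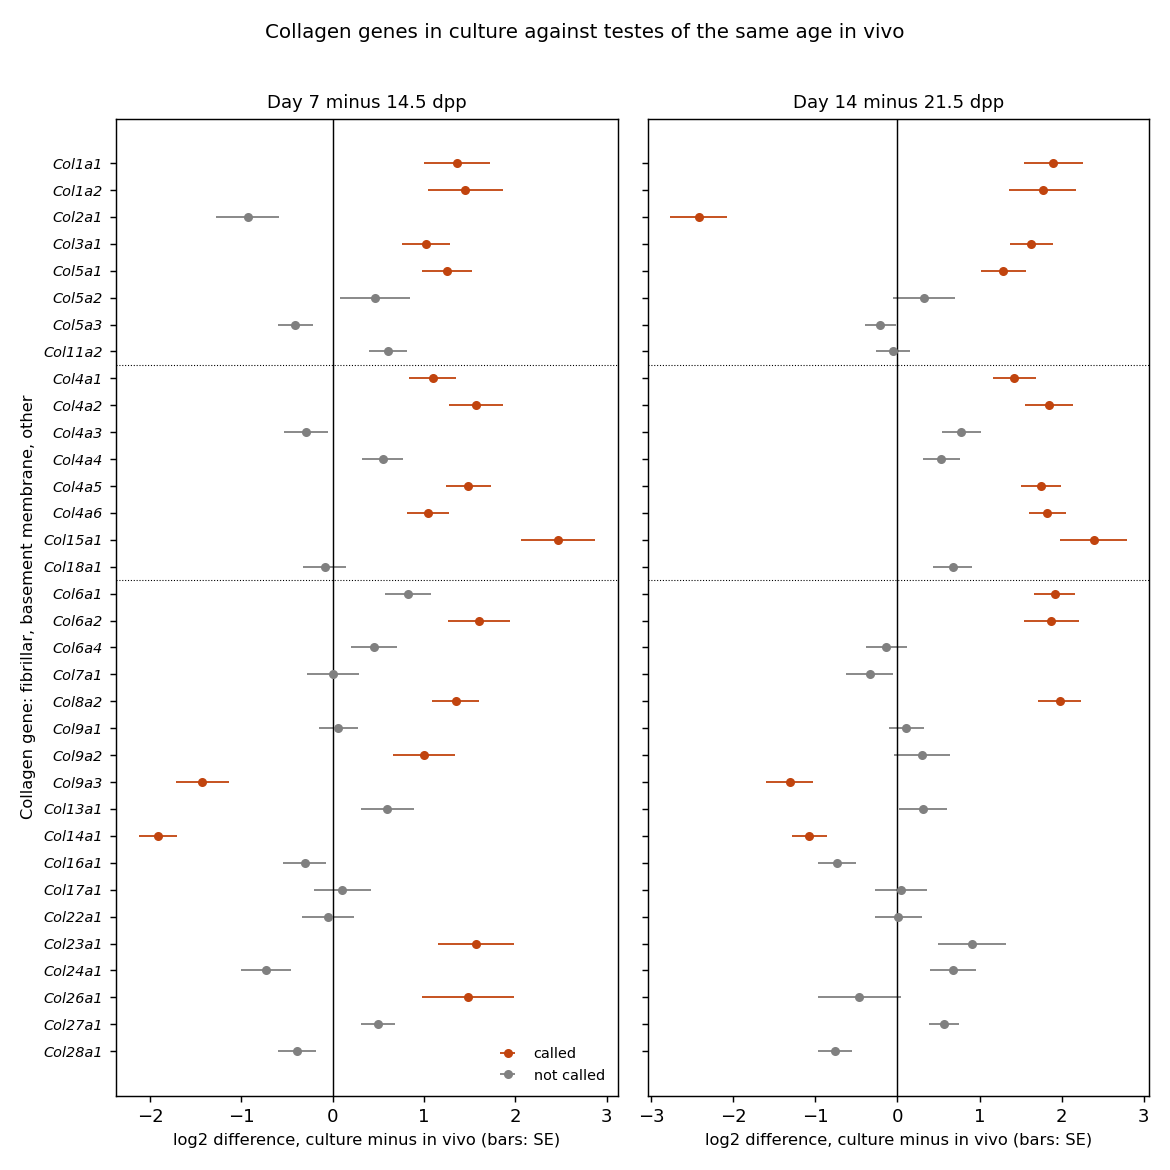
Log2 difference, culture minus in vivo, of each of the 34 collagen genes (horizontal axis, bars are SE) at culture day 7 against 14.5 dpp (left) and day 14 against 21.5 dpp (right); called genes are orange and uncalled ones grey. Col15a1 has the largest positive difference in both panels (2.47 and 2.39), and Col2a1 the largest negative one at day 14 (-2.42).

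Enzymes and partners of the collagens were counted in the same comparisons, to be read against 20.0% of all genes higher and 15.9% lower (35.9% in either direction) at culture day 14 against 21.5 dpp, and 20.2% higher and 28.7% lower (48.9%) at 21.5 against 7.5 dpp in vivo. Of 31 listed collagen processing genes 21 were measured, and 10 were higher and 0 lower at culture day 14 than at 21.5 dpp in vivo, while 15 fell and 0 rose in vivo from 7.5 dpp. Their medians were 0.98 and -1.35, beside 0.25 and -0.34 for all genes. Lox, the enzyme that cross-links collagen, was higher in culture at all 6 ages, by 1.07 to 1.84. At day 14 it averaged 7.27 ± 0.31 in culture and 5.56 ± 0.38 in vivo (SD), a difference of 1.71 ± 0.31 (limma adjusted p = 2.70e-05). Lox was also 1.28 ± 0.31 above the start at culture day 2, but was not called against it at day 7 and was called lower at day 14. In that last comparison 7 of the 21 processing genes were lower and 0 higher, where 7.76% of all genes were lower, 8.61% higher and 16.4% in either direction. Serpinh1, the collagen chaperone of the endoplasmic reticulum, was 1.77 ± 0.26 higher at day 14, and Bmp1, which removes the propeptide of fibrillar collagens, was 1.85 ± 0.23 higher. P3h3, related to prolyl hydroxylases of collagen, was 1.67 ± 0.26 higher.

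The list of fibril-associated proteoglycans and glycoproteins, which also holds Fn1, Tnxb, Thbs2 and Sparc, had 10 measured members of 15, and 9 were higher at culture day 14 than at 21.5 dpp in vivo, with 8 lower at 21.5 than at 7.5 dpp in vivo (medians 1.46 and -2.29). Lum, encoding lumican, averaged 10.11 ± 0.37 in culture and 7.02 ± 0.39 in vivo (SD), a difference of 3.09 ± 0.50. Thbs2, a matricellular protein, differed by 2.80 ± 0.23, Bgn by 2.07 ± 0.28 and Prelp by 1.54 ± 0.29. Basement membrane partners had 14 measured members of 20, of which 8 were higher and 1 lower in culture at day 14, and 12 fell and 1 rose in vivo (medians 1.05 and -1.71). Agrn was 2.21 ± 0.25 higher, Hspg2 (perlecan) 1.48 ± 0.34 and Nid1 (nidogen) 1.16 ± 0.28, and Lamb1 was detected on 1 of the 6 arrays. The largest difference of these partners in that comparison went the other way, at -2.95 for the 1 lower member. The 1 partner that rose in vivo rose by 2.70. Collagen receptors had 7 measured members of 10, of which 2 were higher and 1 lower (42.9% called, median 0.74), and 3 fell and 1 rose in vivo (57.1% called, median -0.41), shares near those of all genes. Ddr1, a collagen-binding receptor kinase, was 1.72 ± 0.41 higher, Itgb1 1.06 ± 0.25 higher, and Itga11 0.89 ± 0.27 without passing the 2-fold limit. Itga1, the alpha chain that binds type IV collagen, was lower in culture by 1.81 ± 0.24 (limma adjusted p = 1.96e-07).

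The change of the culture difference between the ends of the series was tested as an interaction, and collagens passed at about the share of all genes. In this test the culture difference at 21.5 dpp minus that at 9.5 dpp was higher for 10 collagens and lower for 2, where 21.4% of all genes were higher, 16.7% lower and 38.1% in either direction. Col3a1 changed by 2.38 ± 0.37, and by 2.27 ± 0.85 with its second probe. Col2a1 changed by -2.78 ± 0.49, and its other probes were called in the same direction. Col8a2 changed by 2.49 ± 0.36, but its second probe gave 0.04 ± 0.39, and for Col6a2 the values were 2.22 ± 0.48 and -0.21 ± 0.25. Col15a1, which was higher in culture at both ages, had a change of 0.81 ± 0.57 (limma adjusted p = 0.243). With the authors' deposited log2 values, in which differences were smaller, 7 collagens were called in this contrast. At culture day 14 against 21.5 dpp the same values gave 8 collagens higher and 2 lower, and Col1a2, Col3a1, Col4a6, Col8a2 and Col14a1 no longer reached 2-fold, with adjusted p from 7.85e-06 to 0.00634.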

How the data were processed

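The deposited signals are bead array intensities of 45281 probes, not normalized between arrays, with a detection p-value beside each, per the file headers. A second deposited table holds the authors' log2 values of 39 arrays, made with lumi per the submitters' processing notes (version not given). The sources used here do not name the scanner settings. 1 signal column without a sample name was not used, leaving 38 arrays. Signals were corrected and quantile normalized with neqc (offset 16) in limma 3.58.1 under R 4.3.3. Probes detected (p below 0.01) on at least 3 arrays were kept (23665), and the probe with the highest mean represented its gene. Groups were compared with lmFit and eBayes with trend (1 mean per group, 25 residual degrees of freedom). Where all arrays of the dimmer group were below detection, a fold is a lower bound. It sets that group's values to at least the lowest signal of a detected probe. The number of arrays limits the precision. Alternatives covered scaling, filter, probe choice, samples and a replicate block. The fit was tested on simulated data. Members described with values in each sample were those called most often, at most 6 a class. The members and lists were chosen with earlier results of these data known. The labels name no pairing, and samples were treated as unpaired in the main fit. Deviations of same-numbered arrays had a median correlation of 0.02 over 222 pairs, against -0.015 over 444 pairs with different numbers. Within single comparisons it ran from -0.5 to 0.2, so this check cannot exclude pairing in a given comparison.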

Additional observations from a re-analysis of the deposited data

Results flagged for a closer look

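For 12 collagen genes the effect of culture differed between 21.5 and 9.5 dpp, by the interaction term of the limma fit with Benjamini-Hochberg adjustment, where 38.1% of all genes passed the same limits. The signed culture minus in vivo difference was higher at 21.5 than at 9.5 dpp for Col1a1 (1.76), Col1a2 (1.72), Col3a1 (2.38), Col4a1 (1.20), Col4a3 (1.27), Col4a4 (1.53), Col4a6 (1.47), Col6a1 (2.10), Col6a2 (2.22) and Col8a2 (2.49). It was lower for Col2a1 (-2.78) and Col13a1 (-1.01). A higher or lower value here is not a larger or smaller effect. Col2a1 went from 0.36 at 9.5 dpp to -2.42 at 21.5 dpp, and Col4a4 from -0.99 to 0.53. Col13a1 was below detection on all arrays at 9.5 dpp in vivo and in both groups at 21.5 dpp, and Col4a6 on all arrays at 21.5 dpp in vivo, so the sizes of their changes are not measured. The second probes of Col6a2 (-0.21 ± 0.25) and Col8a2 (0.04 ± 0.39) were not called. Col1a2 lost its call without replicate 1 (1.38) or replicate 3 (1.41) of 9.5 dpp in vivo.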

How the results depend on the processing

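Of 1478 recomputed values of the named calls under other settings, 1341 kept their direction and their side of the threshold, 136 fell below it and 1 turned, Col3a1 at culture day 7 against 14.5 dpp (-0.11 with the mean of the kept probes). With the authors' values on the same arrays, 54 of the 90 named calls held and 36 ended. The authors' values, with the same or all 39 arrays, gave 1 collagen called at day 2 against 9.5 dpp, 1 at day 6 against 13.5 dpp, 8 at day 7 against 14.5 dpp, 2 at day 9 against 16.5 dpp, 8 for 14.5 against 7.5 dpp in vivo, 0, 1 and 6 for days 2, 7 and 14 against the start, and 7 for the interaction. With normexp and quantile normalization the counts were 1 at day 2, 2 at day 6, and 1 and 1 for days 2 and 7 against the start. Median centring gave 7 at day 6 (1 higher, 6 lower), 8 at day 7 and 7 at day 7 against the start (0 higher, 7 lower; median of all genes -0.35). The mean of kept probes gave 5 at day 2, 2 at day 4 and 4 at day 7 against the start. Fitting only the 2 groups compared gave 2 at day 6 and 3 at day 9. The counts listed here for these settings are not all that moved. For 21.5 against 7.5 dpp in vivo the authors' values gave 2 higher and 14 lower. Median centring gave 4 higher and 21 lower there, and 2 higher and 15 lower for 14.5 against 7.5 dpp in vivo. For day 14 against the start it gave 2 higher and 8 lower. Without the 2 arrays that stood apart (replicate 1 of 7.5 dpp and replicate 2 of 9.5 dpp in vivo), an alternative chosen after seeing the data, day 2 against the start gave 5 (3 higher, 2 lower). The fit with the replicate block gave the same counts in all comparisons (3, 1, 4, 16, 5 and 15 by culture day, 14 and 24 in vivo, 3, 2 and 14 against the start, 12 for the interaction). Leaving out 1 replicate gave 2 to 4 calls at day 2, 1 to 3 at day 4, 1 to 4 at day 6, 13 to 16 at day 7, 4 to 10 at day 9 and 14 to 16 at day 14. It gave 13 to 18 and 23 to 25 in vivo at 14.5 and 21.5 dpp, 2 to 5, 2 to 3 and 11 to 15 against the start at days 2, 7 and 14, and 11 to 14 for the interaction. Counts moved by over 1.5 times without replicate 2 of culture day 9 (10 at day 9), replicate 1 of 16.5 dpp in vivo (8 at day 9), replicate 1 of 7.5 dpp (5 at day 2 against the start), replicate 3 or 2 of 11.5 dpp in vivo (3 and 2 at day 4), replicate 3 of 13.5 dpp in vivo (1 at day 6) and replicate 2 or 3 of culture day 6 (2 each). The causes were not tested. With 3 arrays per group, and members near background such as Col9a1, Col11a2, Col27a1 and Col28a1, small differences could not be resolved.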
